A study of Mus musculus with 6 samples.

Results

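Transcripts of 32 genes for postsynaptic receptors, scaffold proteins, adhesion molecules and transmitter synthesis were examined in microglia isolated from mouse brain. The genes were picked by name from the deposited expression table. All 32 were present among its 15954 genes, each on a single row. They comprised 21 genes of glutamatergic synapses, 8 of GABAergic synapses and 3 adhesion genes that act at both. LACTB enzymatically dead (ED) mice carried the S162I change in the catalytic pocket of LACTB, a mitochondrial enzyme, on both alleles, and were set against LACTB wild-type (WT) mice. All mice were 3 months old. There were 6 libraries of polyadenylated RNA, 3 from ED mice and 3 from WT mice, with genotype and mouse number taken from the sample titles. The ED allele was built as a conditional knock-in in C57BL/6J embryonic stem cells, and no source used here says whether Cre was applied or which sex the mice were. Cells were collected from dissociated whole brain by magnetic beads against CD11b, a surface protein of myeloid cells, so cells or fragments of other kinds that came through the column were sequenced with the microglia.

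At an excitatory synapse, glutamate opens AMPA and NMDA receptors in the membrane of the receiving neuron. These channels are held in place by layered scaffold proteins of the DLG, DLGAP, SHANK and HOMER families, which also link them to metabotropic receptors. At an inhibitory synapse, GABA made by glutamate decarboxylases opens chloride channels or acts on G protein-coupled GABA-B receptors. Neurexins and neuroligins join the sending and receiving sides across the cleft. Most of these proteins are best known from neurons, although single members are also made by glia.

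The question was whether these transcripts differed between ED and WT microglia. Reads in the listed genes, inferred from the steps of the values, came to 26024924 to 28122336 in ED libraries and 23394686 to 27432421 in WT libraries. All values given here are normalized read counts, which are reads divided by a size factor for each library. Lactb itself averaged 1491 ± 32.8 in ED and 1475 ± 85.01 in WT microglia (SD, n = 3 each). Against the labelled cell type, the 10 microglia markers together made up 3.65% to 4.15% of all normalized counts, with the growth factor receptor gene Csf1r at 281379 ± 7064 in ED and 299672 ± 23159 in WT. The 32 genes together made up 0.0429% to 0.0598%. WT replicate 2 stood apart in endothelial transcripts, with a mean log2 level of 9.66 over 12 markers, against 8.42 to 8.76 in ED libraries and 8.50 to 8.68 in the other WT libraries.

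Of the 32 genes, 30 had a lower mean log2 level in ED than in WT microglia and 2, Gabbr1 and Nlgn2, a higher one. Over all genes of the table, 51.4% were lower. The median log2 fold change of the 32 genes was -0.29, against 0.00 over all genes (-0.0033 before rounding), and single genes lay between -0.63 and 0.18. It was -0.31 for the 21 glutamatergic genes, all of them lower, -0.21 for the 8 GABAergic genes, 6 of them lower, and -0.37 for the 3 genes of both synapses. With libraries weighted by their quality, the median was -0.29 for the glutamatergic and -0.36 for the GABAergic genes, so the order of these classes turned with the weighting. No member passed at a limma adjusted p of 0.05 (adjusted p = 1.00 for every member), nor did any other gene of the table (0.00%). At an unadjusted p under 0.05 there were 5 members, all lower in ED, namely Gad1, Dlgap1, Shank3, Shank1 and Slc12a5, where 1.22% of all genes were lower at that level. No member was higher at that level, where 0.602% of all genes were. The 3 ED libraries lay below the 3 WT libraries for 6 members, namely Gad1, Shank3, Shank1, Gria3, Grm5 and Nrxn3, against 3.42% of all genes, and above them for 0 members, against 2.32% of all genes.

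The size of this difference depended in part on 1 mouse of each genotype. ED replicate 1 was the lowest of the 6 libraries for 22 of 32 members, against 14.1% of all genes, and WT replicate 1 was the highest for 20 members, against 17.3% of all genes. Without ED replicate 1 the median log2 fold change was -0.15, 25 members were lower and 0 had an unadjusted p under 0.05 in the limma fit. Without WT replicate 1 the median was -0.21, 26 members were lower and again 0 had an unadjusted p under 0.05. Over all genes, 0.997% and 0.727% were lower at that level in these fits. Without WT replicate 2, the library rich in endothelial transcripts, the median was -0.29, 31 members were lower and 5 were lower at an unadjusted p under 0.05, against 1.38% of all genes. With each library left out in turn, the median of the 32 genes lay between -0.40 and -0.15.

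**Figure D1:**
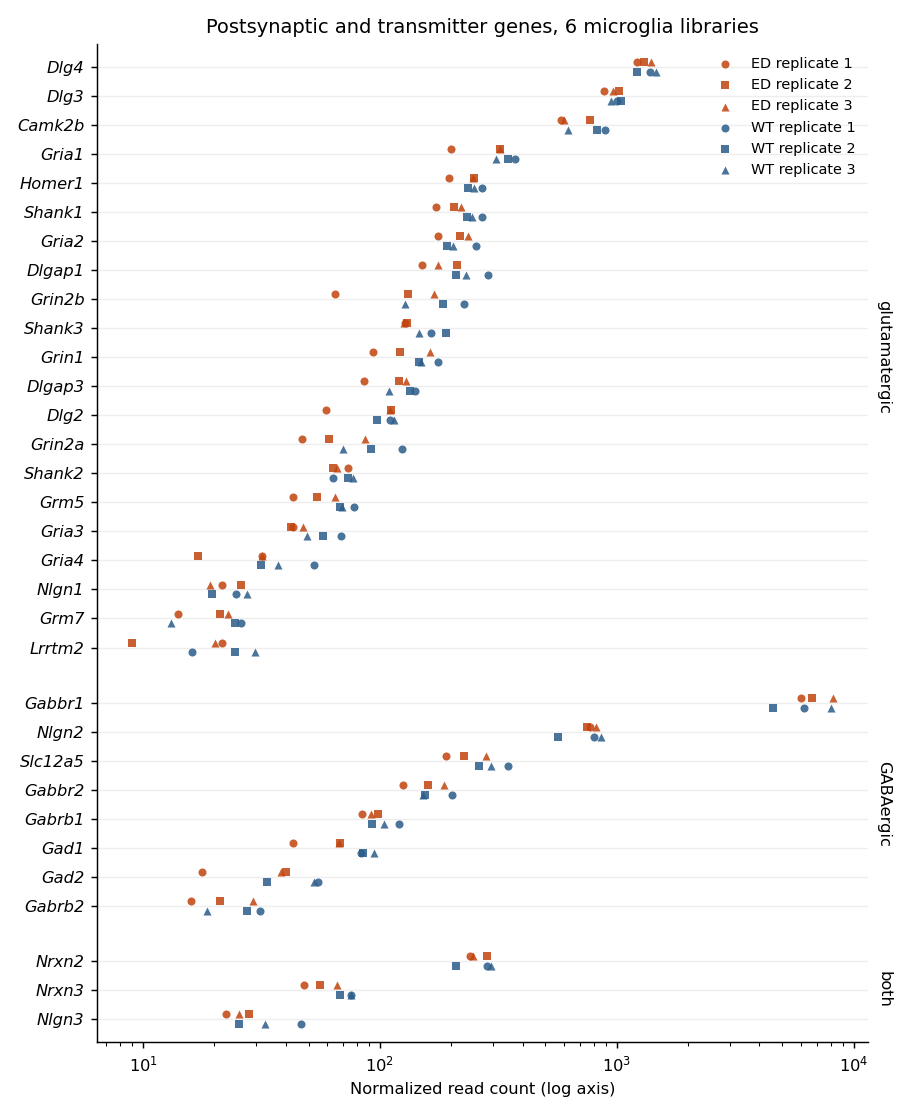
Normalized read count (log axis) of each of the 32 genes in the 3 ED libraries (orange, upper row of each gene) and the 3 WT libraries (blue, lower row), with the marker shape giving the replicate and genes ordered by mean within each class. Gabbr1 stands far above the other members, and ED replicate 1 (orange circle) is the lowest of 6 for 22 genes.

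The members differed widely in abundance. Mean values ran between 20.1 and 6603, with a median of 131 and 14 members under 100. Levels of different genes were compared per kilobase of exon, since longer transcripts give more reads. On that scale 29 of 32 members stood below the median gene of the table. The exceptions were Gabbr1, at 850.5 normalized counts per kilobase, Dlg3, at 167, and Nlgn2, at 131. None of these 3 was at an unadjusted p under 0.05 between genotypes, with log2 fold changes between -0.06 and 0.18.

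AMPA receptors, which carry most fast excitatory transmission, are built from 4 subunits encoded by Gria1 to Gria4. All 4 genes were lower in ED (median log2 fold change -0.35), and each was highest in WT replicate 1. Gria1 (chr11:57011387-57330244 on GRCm38, plus strand) was the most abundant per kilobase, at 51.7 normalized counts, followed by Gria2 at 13.7, Gria4 at 5.34 and Gria3 at 5.21. Gria1 had 201, 323 and 323 normalized counts in ED replicates 1 to 3, against 370.1, 348 and 309.9 in WT replicates 1 to 3. ED replicate 1 stood apart from the other libraries, and the genotypes overlapped (log2 fold change -0.31, SE 0.19, 95% interval -0.73 to 0.11). Without that library the log2 fold change of Gria1 was -0.082.

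Gria3 (chrX:41400854-41678601, plus strand) had 43.1, 42.1 and 47.4 in ED microglia, against 68.8, 57.8 and 49.3 in WT microglia. Here the groups did not overlap, although the highest ED library lay close to the lowest WT library (log2 fold change -0.39, SE 0.21, exact permutation p = 0.1). With 3 mice against 3, 0.1 is the smallest two-sided p that this permutation test can give. Gria4 had 31.9, 17.03 and 31.9 in ED, against 52.7, 31.3 and 37.2 in WT, with overlap between the genotypes (log2 fold change -0.59, SE 0.33, and -0.30 without ED replicate 2). Gria2, whose subunit keeps most AMPA receptors from passing calcium, showed the smallest difference of the 4. It averaged 210 ± 30.7 in ED and 216 ± 32.8 in WT, a log2 fold change of -0.04 (SE 0.16) with a 95% interval of -0.41 to 0.32.

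NMDA receptors, which need both glutamate and depolarization to open, contain the obligatory subunit encoded by Grin1 together with subunits such as those of Grin2a and Grin2b. The 3 genes had a median log2 fold change of -0.55. For each of them ED replicate 1 was the lowest and WT replicate 1 the highest library. Grin2b (chr6:135713233-136173511, minus strand) showed the most negative log2 fold change of all 32 members, at -0.63, but also a wide spread (SE 0.34, 95% interval -1.38 to 0.13). It had 64.7, 131 and 169 in ED microglia, against 227, 184 and 128 in WT microglia. The lowest WT library thus stood below 2 of the 3 ED libraries, and the exact permutation p was 0.3. Without ED replicate 1 the log2 fold change of Grin2b was -0.23. Grin2a (chr16:9567898-9995560, minus strand) had 46.9, 61.1 and 86.6 in ED, against 124, 92.0 and 70.1 in WT, again with overlap (log2 fold change -0.55, SE 0.28). Grin1 averaged 126 ± 34.5 in ED and 157 ± 16.8 in WT (log2 fold change -0.35, SE 0.21, and -0.16 without ED replicate 1).

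Metabotropic glutamate receptors signal through G proteins. Grm5 (chr7:87584168-88134907, plus strand), which HOMER proteins tie to the scaffold, had 43.1, 54.1 and 64.7 in ED microglia, against 77.5, 67.6 and 69.0 in WT microglia. All ED libraries lay below all WT libraries (log2 fold change -0.41, SE 0.21, exact permutation p = 0.1). Grm7, which encodes a receptor of the sending side, was near the floor of the table at 19.3 ± 4.62 in ED and 21.1 ± 6.97 in WT. Its log2 fold change of -0.10 (SE 0.36) turned positive without ED replicate 1, to 0.10.

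All 10 scaffold and kinase genes of the glutamatergic synapse were lower in ED (median log2 fold change -0.23), against 51.4% of all genes. Of the 10, 3 had an unadjusted limma p under 0.05, against 1.22% of all genes lower at that level. SHANK proteins form the deep layer of the scaffold. Shank3 (chr15:89499623-89560261, plus strand) had 127, 130.2 and 126 in ED microglia, against 165, 189.9 and 146 in WT microglia. The ED libraries lay within a narrow range below every WT library (log2 fold change -0.37, SE 0.15, 95% interval -0.71 to -0.03, exact permutation p = 0.1). Shank1 (chr7:44310253-44360572, plus strand) had 172, 205 and 221 in ED, against 269, 233 and 245 in WT. These groups were also apart (log2 fold change -0.32, SE 0.14, exact permutation p = 0.1). Shank2 showed no such separation, at 67.3 ± 5.19 in ED and 71.2 ± 6.87 in WT (log2 fold change -0.08, SE 0.18).

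Dlgap1 (chr17:69969073-70821413, plus strand), whose product bridges the DLG and SHANK layers, had 149.9, 211 and 176 in ED microglia, against 286, 209 and 231 in WT microglia. WT replicate 2 lay just below ED replicate 2, so the groups overlapped (log2 fold change -0.43, SE 0.17, exact permutation p = 0.2). Its relative Dlgap3 averaged 112 ± 23.3 in ED and 128 ± 16.5 in WT. The DLG proteins anchor NMDA receptors, and of their genes Dlg4 and Dlg3 differed little. Dlg4 (chr11:70016942-70047522, plus strand), the most abundant glutamatergic member by count, had 1216, 1305 and 1398 in ED, against 1379, 1220 and 1469 in WT. The 2 genotypes covered nearly the same range (log2 fold change -0.05, SE 0.10, 95% interval -0.27 to 0.16). Dlg3 averaged 956 ± 69.7 in ED and 994 ± 45.0 in WT, and Dlg2 93.5 ± 29.9 in ED and 108 ± 9.45 in WT. Dlg2 was less closely bounded (log2 fold change -0.25, SE 0.25, 95% interval -0.82 to 0.31). For Dlg2 the difference came from ED replicate 1, at 59.0, and the log2 fold change without that library was 0.05.

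Homer1, which encodes an adaptor between SHANK proteins and metabotropic receptors, averaged 230.1 ± 29.7 in ED and 251 ± 16.6 in WT (log2 fold change -0.13, SE 0.14). Camk2b, which encodes a calcium-dependent kinase of the postsynaptic density, averaged 649.9 ± 106 in ED and 782 ± 141 in WT (log2 fold change -0.26, SE 0.16).

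Gad1 and Gad2 encode the glutamate decarboxylases that make GABA. Gad1 (ENSMUSG00000070880, chr2:70553072-70602014, plus strand) had 43.1, 68.1 and 67.5 in ED microglia, against 82.8, 85.2 and 94.2 in WT microglia. Every ED library lay below every WT library, with ED replicate 1 the lowest (log2 fold change -0.57, SE 0.22, 95% interval -1.07 to -0.07, exact permutation p = 0.1). Its log2 fold change lay between -0.68 and -0.36 when each library was left out in turn. Gad2 (chr2:22622205-22693874, plus strand) had 17.8, 40.1 and 38.3 in ED, against 54.9, 33.3 and 52.6 in WT. The groups overlapped (log2 fold change -0.59, SE 0.35, exact permutation p = 0.3), and with each library left out in turn the log2 fold change lay between -0.81 and -0.22, nearest 0 without ED replicate 1. Slc12a5 (chr2:164960802-164999731, plus strand), the neuronal chloride exporter on which the inhibitory action of GABA depends, had 189, 226 and 281 in ED, against 346, 262 and 296 in WT. The highest ED library lay above the lowest WT library (log2 fold change -0.38, SE 0.17, exact permutation p = 0.2).

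GABA receptor genes showed small differences with overlap. Gabrb1, which encodes a subunit of the chloride channel, had 84.3, 98.2 and 92.1 in ED microglia, against 120.5, 93.0 and 104 in WT microglia. A single ED library exceeded the lowest WT library (log2 fold change -0.20, SE 0.17). Gabrb2, of the same family, was near the floor at 22.0 ± 6.68 in ED and 25.7 ± 6.46 in WT. The GABA-B receptor works as a pair of subunits, and the genes of that pair stood at very different levels. Gabbr1 (ENSMUSG00000024462, chr17:37045966-37075067, plus strand) was at 850.5 normalized counts per kilobase of exon, higher than 91.0% of genes in the table, while Gabbr2 was at 24.4. Gabbr1 had 6020, 6651 and 8215 in ED, against 6141, 4553 and 8039 in WT. The genotypes overlapped, with WT replicate 2 below every ED library (log2 fold change 0.18, SE 0.19, 95% interval -0.24 to 0.61, exact permutation p = 0.5), and without that library the log2 fold change was -0.03. Gabbr2 averaged 157 ± 30.8 in ED and 169 ± 27.6 in WT (log2 fold change -0.12, SE 0.19).

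Among the adhesion genes, Nlgn2, the neuroligin of inhibitory synapses, was the most abundant. Nlgn2 (chr11:69823122-69837784, minus strand) had 769, 745 and 819 in ED microglia, against 803, 564 and 859.6 in WT microglia. WT replicate 2 was again the lowest library, and without it the log2 fold change of 0.09 (SE 0.15) became -0.10. Nrxn3 (chr12:88722876-90334935, plus strand), a neurexin gene, had 47.8, 56.1 and 65.6 in ED, against 75.3, 67.6 and 75.6 in WT. The groups were apart by a narrow gap (log2 fold change -0.37, SE 0.20, exact permutation p = 0.1). Nrxn2, the other neurexin gene, averaged 257 ± 24.3 in ED and 262 ± 47.0 in WT (log2 fold change -0.02, SE 0.16).

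Of the other adhesion genes, Nlgn1, the neuroligin of excitatory synapses, averaged 22.2 ± 3.50 in ED and 23.9 ± 3.96 in WT. Nlgn3 averaged 25.4 ± 2.78 in ED and 34.9 ± 10.5 in WT, with WT replicate 1 at 46.3 well above the rest. Lrrtm2, a leucine-rich repeat partner of neurexins, averaged 16.9 ± 6.85 in ED and 23.4 ± 6.78 in WT. These 3 genes overlapped between genotypes. Exons of Nlgn3 share 3823 bases with the gene model Gm21986 on the same strand, and those of Lrrtm2 share 95 bases with Ctnna1, which averaged 2853 and lies on the opposite strand. Strand could not separate Nlgn3 from Gm21986. For pairs on opposite strands, no source used here states whether counting followed the strand, so their reads may not have been told apart. Of the 32 members, 16 share exon bases with another gene, 5 of them with a gene in the deposited table. Among these is Shank1, which shares 339 bases with 1700008O03Rik on the opposite strand.

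**Figure D2:**
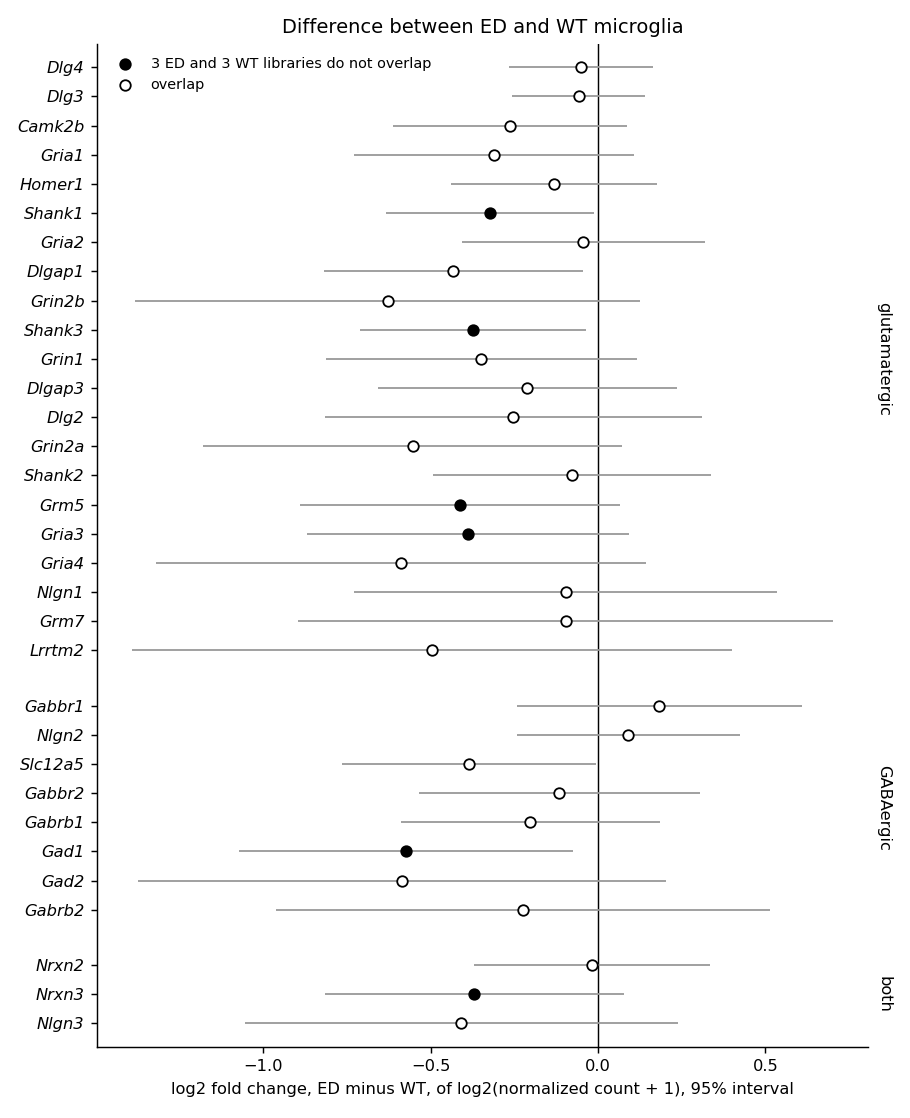
Log2 fold change (ED minus WT, on the log2(normalized count + 1) scale) of each of the 32 genes with its 95% interval from limma, in the same gene order as the plot of counts. Filled points mark the 6 genes whose ED and WT libraries do not overlap, all lower in ED, and only Gabbr1 and Nlgn2 lie right of 0.

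**Figure D3:**
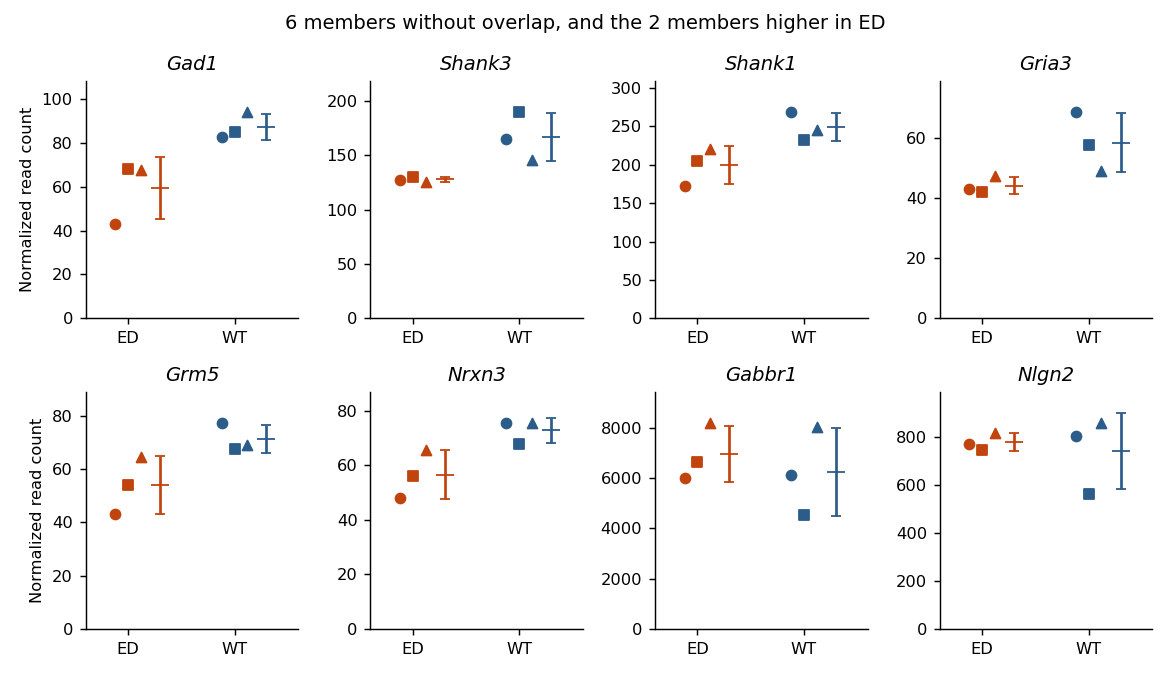
Normalized read counts, on axes that start at 0, of 8 genes in the ED libraries (left) and the WT libraries (right), with points for mice and a bar for the mean ± SD (n = 3). In the first 6 panels all ED points lie below all WT points, while Gabbr1 and Nlgn2 overlap.

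Promoter sequence was read to see what the members share. RefSeq start sites on GRCm38.p6 were matched by symbol for 22 of the 32 members, with 37 start sites in all, and the 250 bases before each start were searched on both strands. The GC box GGGCGG, which Sp family factors bind, was in 12 of the 37 member promoters (32.4%), and in 32.7% of all 32851 promoters of that length. The cyclic AMP response element TGACGTCA was in 0 of 37, and in 1.55% of all. TTCAGCACC, letters of the left side of RE1, the element bound by the neuronal silencer REST, was in 1 of 37 (Nlgn1), and in 0.301% of all. GGACAGCG, letters of its right side, was in 2 of 37 (Gad2 and Gria2), and in 0.992% of all. These motifs do not overlap each other in the stretches printed here. A match describes the letters and says nothing of binding in these cells. Gad1 and Shank3 are shown because their libraries did not overlap, and Gabbr1 because it was the most abundant member, with a higher mean in ED. The GC box, on either strand, is in capitals.

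Gad1, chr2:70561879-70562128, plus strand: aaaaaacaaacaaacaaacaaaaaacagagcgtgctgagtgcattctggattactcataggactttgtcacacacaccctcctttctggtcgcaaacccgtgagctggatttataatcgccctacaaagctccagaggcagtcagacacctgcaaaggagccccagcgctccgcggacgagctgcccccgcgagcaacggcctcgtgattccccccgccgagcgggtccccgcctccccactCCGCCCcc

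Shank3, chr15:89499358-89499607, plus strand: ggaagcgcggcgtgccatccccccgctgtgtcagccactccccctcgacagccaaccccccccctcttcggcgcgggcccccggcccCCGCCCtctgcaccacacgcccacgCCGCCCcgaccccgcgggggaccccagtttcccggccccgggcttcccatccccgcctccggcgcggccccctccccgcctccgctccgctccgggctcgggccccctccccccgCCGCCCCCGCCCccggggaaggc

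Gabbr1, chr17:37045716-37045965, plus strand: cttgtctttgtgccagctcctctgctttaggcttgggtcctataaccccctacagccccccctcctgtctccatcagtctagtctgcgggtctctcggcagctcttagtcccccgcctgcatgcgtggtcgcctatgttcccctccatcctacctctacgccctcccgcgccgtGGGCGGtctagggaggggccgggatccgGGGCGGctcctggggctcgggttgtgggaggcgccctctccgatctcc

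There was 1 GC box in the Gad1 stretch, 8 bases before one of its RefSeq starts. The Shank3 stretch held 4 in a sequence of 82.4% G and C, against a median of 52.4% over all promoters, and the Gabbr1 stretch held 2. The 3 stretches with RE1 letters, in capitals, are shown because they were the only matches to those letters among the 22 members searched. Of these genes, Gad2 had a log2 fold change of -0.59, Gria2 of -0.04 and Nlgn1 of -0.10, and none was at an unadjusted p under 0.05.

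Gad2, chr2:22622147-22622206, plus strand: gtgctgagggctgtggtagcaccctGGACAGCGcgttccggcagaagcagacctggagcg

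Gria2, chr3:80802973-80803032, minus strand: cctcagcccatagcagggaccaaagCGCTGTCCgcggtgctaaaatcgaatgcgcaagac

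Nlgn1, chr3:26154105-26154164, minus strand: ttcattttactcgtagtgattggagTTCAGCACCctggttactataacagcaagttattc

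Other genes of the same synapses were then counted from lists that were not part of the 32. Of 40 measured genes of glutamatergic synapses, 32 were lower and 8 higher in ED, with a median log2 fold change of -0.27. Over all genes, 51.4% were lower. The ED libraries lay below the WT libraries for 6 of the 40, against 3.42% of all genes, and above them for 0, against 2.32%. None passed the adjusted test. At an unadjusted limma p under 0.05 there were 0, where 1.22% of all genes were lower and 0.602% higher. Nearest to that level were Cacng2, an AMPA receptor auxiliary subunit gene, at 28.3 ± 7.26 in ED and 42.4 ± 5.001 in WT, and the kainate receptor gene Grik4, at 21.8 ± 1.10 in ED and 33.8 ± 6.88 in WT. Nrgn, which encodes a calmodulin-binding protein of dendrites, averaged 389 ± 65.7 in ED and 478 ± 58.0 in WT. The most abundant of the list were Ppp1r9b, at 15582 ± 149 in ED and 16145 ± 712 in WT, and Dlgap4, at 4241 ± 145 in ED and 4016 ± 484 in WT, with log2 fold changes of -0.05 and 0.08.

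Of 20 measured genes of GABAergic and related inhibitory cells, 14 were lower and 6 higher in ED (median log2 fold change -0.26). The ED libraries lay below the WT libraries for 4 of the 20, against 3.42% of all genes, and above them for 0, against 2.32%. At an unadjusted limma p under 0.05, 2 were lower in ED, against 1.22% of all genes. Among them was Glrb, a glycine receptor subunit gene, at 76.1 ± 2.82 in ED and 104 ± 3.75 in WT. The interneuron peptide gene Sst averaged 44.2 ± 3.60 in ED and 62.2 ± 10.7 in WT. The most abundant were Kctd12, an auxiliary subunit gene of GABA-B receptors, at 18059 ± 1363 in ED and 19540 ± 1233 in WT, and the GABA transporter gene Slc6a11, at 862 ± 88.5 in ED and 760.4 ± 176 in WT.

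Most of the chosen neuron markers were lower in ED, as most of the members were. Of 20 neuron markers, 18 were lower in ED (median log2 fold change -0.33). For 13 markers the ED libraries lay below the WT libraries, against 3.42% of all genes. At an unadjusted limma p under 0.05, 10 were lower, against 1.22% of all genes. Elavl4 (log2 fold change 0.14) and Tubb3 (0.0012) were higher in ED. ED replicate 1 was the lowest library for 12 of the 20, against 14.1% of all genes. With libraries left out in turn, the median lay between -0.42 and -0.23. The summed count of the 20 markers was 5846, 6784 and 7655 in ED replicates 1 to 3, against 8756, 8213 and 8359 in WT replicates 1 to 3. Of the 20, 0 were listed at 0 in any library. Among the most abundant was the SNARE gene Snap25, at 574 ± 142 in ED and 797 ± 43.2 in WT. Their part in the differences of the 32 genes was not tested. In bulk RNA, fewer cells or fragments of a type and less RNA in each cannot be told apart.

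Measured against the neuron markers of the same library, the genotypes overlapped. The mean log2 level of the glutamatergic members minus that of the neuron markers was -1.30, -1.27 and -1.22 in ED libraries, and -1.17, -1.28 and -1.36 in WT libraries. For the GABAergic members this difference was -0.82, -0.63 and -0.57 in ED, and -0.62, -0.93 and -0.70 in WT. Before that subtraction, the mean log2 level of the glutamatergic members was 6.63, 6.86 and 7.004 in ED, all below the 7.25, 7.09 and 7.03 in WT. The gap was narrow, with ED replicate 3 just below WT replicate 3. The mean log2 level of the GABAergic members was 7.11, 7.496 and 7.65 in ED, and 7.81, 7.44 and 7.69 in WT, with overlap. The GABAergic level minus the glutamatergic level was 0.48, 0.64 and 0.65 in ED, and 0.55, 0.35 and 0.66 in WT, again with overlap.

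Markers of other cell types were also counted. Of 12 astrocyte markers, 6 were lower and 6 higher in ED (median log2 fold change -0.01), with summed counts of 52291 to 60513 in ED and 52059 to 65711 in WT and Glul and Slc1a3 the most abundant. Of 15 oligodendrocyte markers, 6 were lower (median 0.09), with sums of 12575 to 14751 in ED and 12776 to 16801 in WT and Mbp and Cnp the most abundant. Of 12 endothelial markers, 11 were lower (median -0.42), with sums of 12368 to 16070 in ED and 13000 to 20828 in WT, the highest being WT replicate 2, and Bsg and Pecam1 the most abundant. Of the 10 microglia markers, 8 were lower (median -0.06), with Csf1r the most abundant. At an unadjusted limma p under 0.05, the astrocyte marker Gfap (log2 fold change -0.36) and the oligodendrocyte marker Cspg4 (-0.56) were lower, against 1.22% of all genes. The astrocyte marker Gjb6 (0.44) was higher at that level, against 0.602%. For 2 astrocyte markers, Gjb6 and Slc1a3, the ED libraries lay above the WT libraries, against 2.32% of all genes. No marker of these lists had all ED libraries below all WT libraries.

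**Figure D4:**
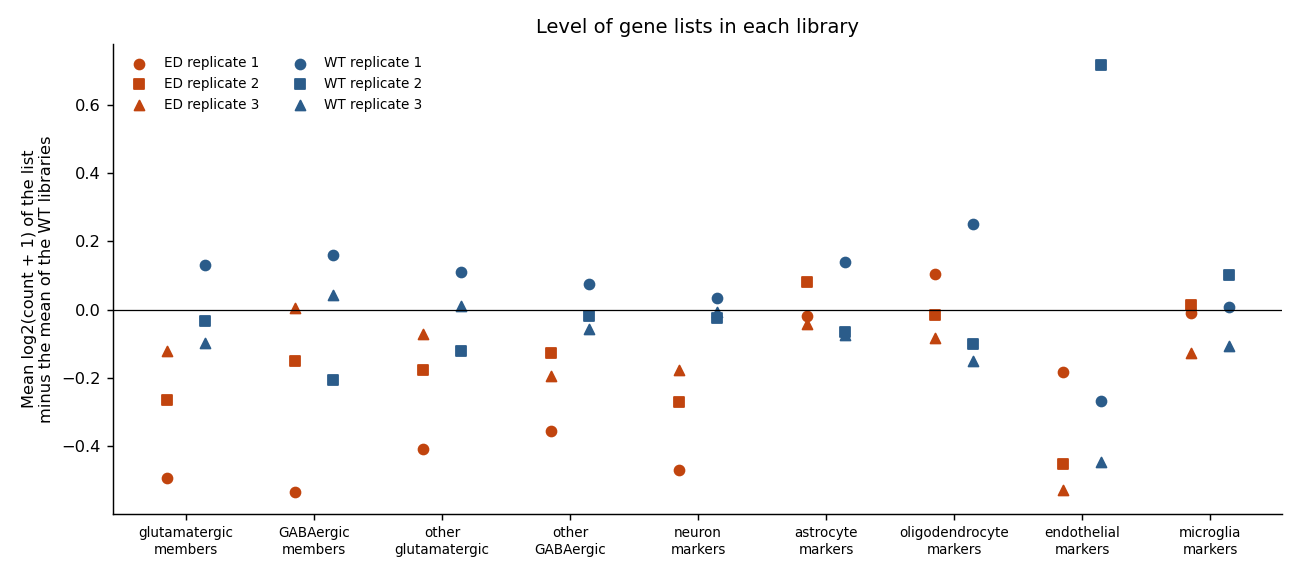
Mean log2(normalized count + 1) of each gene list in each library, minus the mean of the 3 WT libraries, with ED libraries (orange) left of WT libraries (blue) and marker shapes for replicates. The glutamatergic members, the other GABAergic genes and the neuron markers are below all WT libraries in every ED library. The GABAergic members and the other glutamatergic genes overlap between genotypes. WT replicate 2 stands well above the other 5 libraries in endothelial markers.

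**Figure D5:**
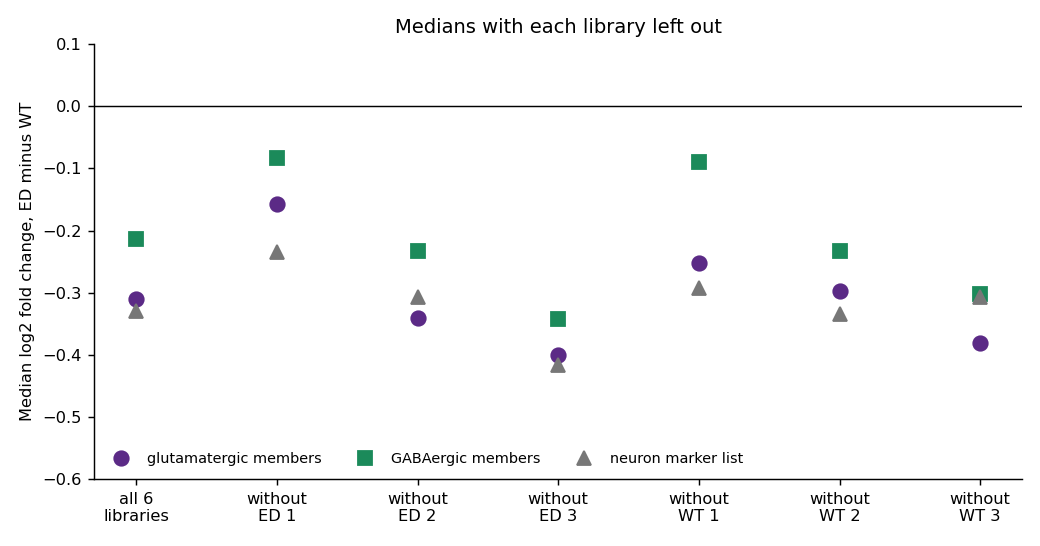
Median log2 fold change (ED minus WT) of the glutamatergic members, the GABAergic members and the neuron markers with all 6 libraries and with each left out in turn. The glutamatergic median lies between -0.40 and -0.16 and the GABAergic median between -0.34 and -0.08, both nearest 0 without ED replicate 1.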

How the data were processed

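RNA of CD11b-selected microglia was sequenced from 3 ED and 3 WT mice. The submitters' processing notes name STAR 2.5.2b, Subread 1.5.2 with featureCounts, Trimmomatic 0.36, DESeq2 (no version) and the GRCm38 build. The signal values deposited by the authors are read counts per gene after division by a library's size factor: 100% of values were whole multiples of a step (tolerance 0.0001 of a step). In ED libraries the lowest value was 2 steps, so read size there was inferred and no count model was fitted, although one had been planned. The lowest mean in the table was 9.87. Its fold change and p-value columns, from the authors' own comparison, were not used.

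Values were analysed as log2(value + 1), so fold changes of weakly expressed genes are understated. ED was compared with WT over all 15954 genes with limma 3.58.1 in R 4.3.3 (genotype only, mean-variance trend, Benjamini-Hochberg adjustment at 0.05). Intervals are 95% intervals from that fit. Single genes were also tested by exact two-sided permutation of log2 values in SciPy 1.17.1. Nothing beyond the mouse numbers says how mice were raised or processed. The limma p-values set each difference against the spread between these mice, adjusted toward a trend over all genes. The procedure was tested on simulated data. Alternatives were 2 other pseudocounts, a minimum mean of 50, 2 other scalings, no trend, library weights, a block for mouse number and leaving out each library.

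Coordinates and exon lengths came from GENCODE M21 (15917 identifiers matched) and promoters from RefSeq. Members, lists and tests were chosen with earlier results of these data known, so no list was tested as a whole. Values in every library are given for the 8 glutamatergic, 4 GABAergic and 1 shared member with the smallest p, the most abundant member of each role, and members higher in ED. Of the other lists, the 3 genes with the smallest p and the 2 most abundant are named, except some that are not reported here. RE1 stretches were picked after the search.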

Additional observations from a re-analysis of the deposited data

How the results depend on the processing

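Of the 32 members, 23 stayed lower in ED under all 14 alternatives that gave them a value, and no member passed the adjusted test in any (smallest limma adjusted p = 0.234). Nrxn2 turned to 0.000503 with scaling to the library total, and Nlgn2 to -0.047 with library weights. With libraries left out in turn, log2 fold changes ran from -0.13 to 0.076 for Gria2, -0.39 to 0.10 for Grm7, -0.25 to 0.040 for Gabbr2, -0.17 to 0.076 for Nrxn2, -0.026 to 0.38 for Gabbr1, -0.096 to 0.21 for Nlgn2, -0.13 to 0.0083 for Dlg4, -0.23 to 0.0036 for Nlgn1 and -0.41 to 0.045 for Dlg2. Members at an unadjusted p under 0.05 numbered 0 to 7 with libraries left out, 3 with scaling to the library total and 13 with library weights, against 5. Over all genes that count was 290, against 216 to 912 with libraries left out (the highest without WT replicate 3), 180 with a minimum mean of 50, 498 without the trend and 1761 with weights, under which 4 genes passed the adjusted test, none of them a member. The cause of these shifts was not tested, except that fewer genes enter at a minimum mean of 50. Whether same-numbered mice shared more than a number is not stated. Their deviations from the genotype mean correlated at -0.25, 0.05 and 0.35, against -0.40 to 0.40 for mice of different numbers. With 3 mice per genotype these values cannot decide it. With a replicate block, 4 members and 403 genes had an unadjusted limma p under 0.05, and 0 passed the adjusted test. The planned count models were not run. The 95% intervals of Grm7, Nlgn1, Lrrtm2 and Gabrb2 included a difference as large as that of Gad1. So did those of many other members, among them Gria1, Grin1, Dlg2, Dlgap3, Gabrb1 and Nlgn3.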
